A study of Cocos nucifera and Zingiber officinale with 11 samples.

Results

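The MIR-159 family was examined in small RNA of exosome-like nanoparticles (ELNs), the vesicle-sized particles pelleted from the juice of 11 edible plants (together EPDELNs). All miRNA names with the number 159 were taken, which gave 11 of the 418 names in the merged table and 29 of its 950 values above 0. The plants were bought at market, and each gave 1 library, with no treatment or replicate. The tissue was the rhizome of ginger and otherwise what the labels call fruit. The pea library carries both pea and lima bean among its labels, so its species is uncertain, and it is named pea here. Tomato, soybean, pea, Hami melon and ginger were ground in buffer for their juice, whereas orange, pear, kiwifruit, grapefruit and blueberry were squeezed, and for coconut the way is not given in the sources used here. Differences between plants therefore cannot be told apart from differences between fruits, purchases or preparations.

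In plants a mature miRNA guides an Argonaute protein to messenger RNAs with a nearly complementary site. MIR-159 is one of the oldest plant families and silences GAMYB genes, MYB transcription factors that act downstream of gibberellin. Through them it is known, mainly from Arabidopsis and rice, for its part in anther and seed development, and the GAMYB genes drive enzyme synthesis in the cereal aleurone. Its sister family, MIR-319, has a similar sequence and acts mainly on TCP transcription factors that shape leaves.

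The sequences show how near many of the 11 names lie to each other, so that reads may be divided among them. Each name carries the code of the species whose miRBase entry matched (mtr for Medicago truncatula, osa for rice, ptc for poplar, gma for soybean, aqc for Aquilegia, pvu for common bean, zma for maize and ath for Arabidopsis), not of the plant sequenced. The leading member is given with its seed, bases 2 to 8 from the 5′ end, in capitals.
mtr-MIR-159a: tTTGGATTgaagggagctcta
The next 7 references are near-copies of it, and here capitals mark the bases that differ from mtr-MIR-159a.
osa-MIR-159f: Cttggattgaagggagctcta
ptc-MIR-159d: CttggattgaagggagctcCT
aqc-MIR-159: tttggaCtgaagggagctcta
zma-MIR-159i-3p: tttggaGtgaagggagctctG
ath-MIR-159b-3p: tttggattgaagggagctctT
ath-MIR-159c: tttggattgaagggagctcCT
osa-MIR--159c: AttggattgaagggagctcCa
The name osa-MIR--159c is spelled with a double dash in the table. These 8 references of 11 share the central bases TGAAGGGAGCT, and 6 of the 11 have the same seed, TTGGATT. Only aqc-MIR-159 and zma-MIR-159i-3p differ from mtr-MIR-159a inside the seed, at base 7 (T7C and T7G, written as the mtr-MIR-159a base, its position from the 5′ end, and the base of the other sequence).

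The other 3 references are different small RNAs, and capitals mark their seeds.
gma-MIR-159a-5p: gAGCTCCTtgaagtccaattg
gma-MIR-159d: aGCTGCTTagctatggatccc
pvu-MIR-159a.2: cTTCCATAtctggggagcttc
A name ending in 5p denotes the other arm of the hairpin precursor, and the ending of pvu-MIR-159a.2 denotes a further small RNA cut from the same hairpin. Their pairing was computed without gaps. The gma-MIR-159a-5p reference paired with mtr-MIR-159a at 14 Watson-Crick and 2 G-U positions of 19, and each strand kept an overhang of 2 bases at its 3′ end, the staggered form that Dicer-like enzymes leave. The gma-MIR-159d reference paired in the same staggered form with pvu-MIR-159a.2, at 13 Watson-Crick and 2 G-U positions of 19. With mtr-MIR-159a the best placement of gma-MIR-159d gave 7 and 3 of 18, and that of pvu-MIR-159a.2 gave 7 and 3 of 16. None of the 3 has the seed TTGGATT.

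Levels were deposited as RPM (reads scaled to a fixed library total), and each value was a whole multiple of 1 step per library, from which reads were recovered. The totals behind RPM were 236959 (ginger) to 6518871 reads (kiwifruit), and 4541 (coconut) to 377989 (kiwifruit) reads were assigned to miRNAs. These totals were lower than the high-quality reads that the paper gives for each library, and not in proportion to them. The reason was not tested. The smallest listed value was 5 reads, or 7 reads in ginger, so a name that is not listed may still have been present below that. Because the summed level differed so much between libraries, abundance is given as the share of the summed miRNA level of a library, with 95% Wilson intervals that cover counting error only and are too narrow where PCR copies were counted.

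MIR-159 was listed in all 11 libraries, but its share ran from 44.0% in Hami melon to 0.102% in tomato, a 434-fold range. It was the most abundant family in 3 libraries, with 44.0% (43.7 to 44.4, 38661 reads) in Hami melon, 42.2% (42.0 to 42.4, 118440 reads) in soybean and 29.7% (29.3 to 30.2, 13632 reads) in pea. In these 3 it ranked first among 52, 83 and 56 families. Kiwifruit followed with 16.6% (16.5 to 16.7, 62700 reads, the 2nd of 53 families), orange with 12.6% (12.5 to 12.8, 23674 reads, the 3rd of 52) and pear with 6.88% (6.73 to 7.03, 7737 reads, the 4th of 57). The other 5 libraries lay below all of these.

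Ginger held 2.46% (2.24 to 2.70, 416 reads), coconut 1.37% (1.07 to 1.75, 62 reads) and grapefruit 0.801% (0.768 to 0.836, 2075 reads). Blueberry held 0.617% (0.566 to 0.673, 505 reads) and tomato 0.102% (0.0857 to 0.120, 133 reads), where MIR-159 was the 24th of 78 families. No interval met that of its neighbour in this order, but without a replicate the order holds for these libraries only. Most of the lower shares depended on what else was counted. A list of 11 numbers regarded as resembling pieces of tRNA or rRNA was left out, a resemblance that was not tested here. Without their names grapefruit had 6.48%, ginger 3.89%, coconut 2.18% and tomato 0.306%, while blueberry had 0.655%. The mean share was 14.3% ± 16.9 (SD, n = 11 libraries), and the median was 6.88%. The mean was 7.50% ± 7.10 in squeezed (0.617% to 16.6%, n = 5) and 23.7% ± 21.2 in ground libraries (0.102% to 44.0%, n = 5), ranges that overlapped. All 3 libraries in which MIR-159 ranked first were ground, and juice method and plant cannot be told apart.

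**Figure D1:**
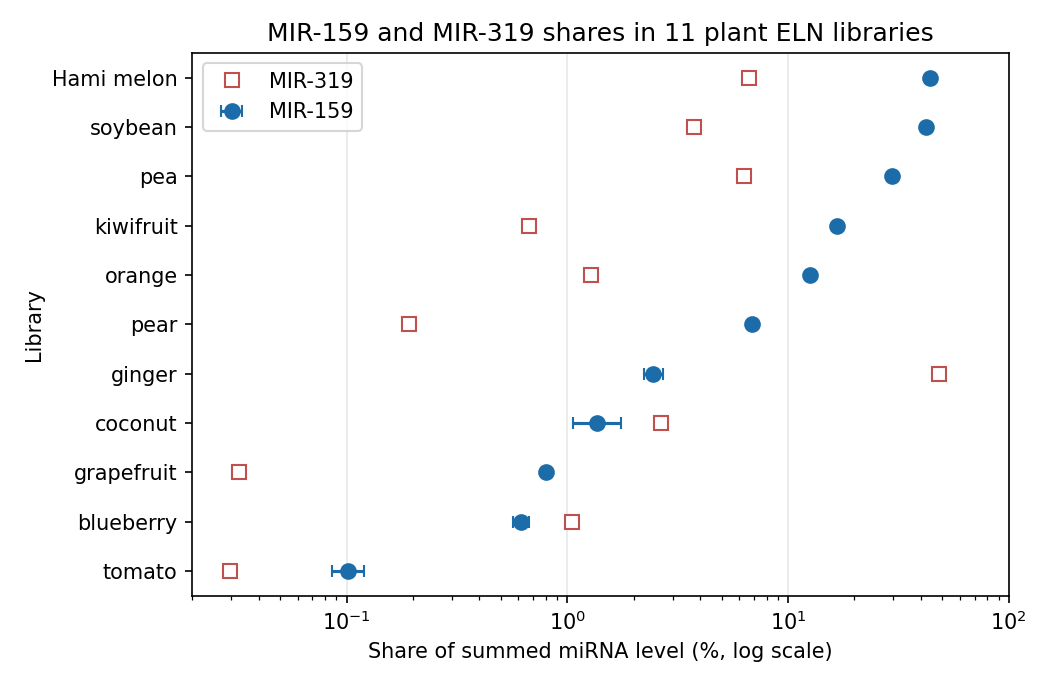
Share of the summed miRNA level (%, log scale) taken by MIR-159 (filled circles, bars are 95% Wilson intervals for counting error) and by its sister family MIR-319 (open squares, no interval drawn) in each of the 11 libraries, ordered by the MIR-159 share. MIR-159 ranged from 44.0% in Hami melon to 0.102% in tomato, and MIR-319 was above it in ginger, coconut and blueberry only.

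On the RPM scale the order changed. Soybean had 225002 RPM of MIR-159, pea 39331 RPM, Hami melon 28208 RPM and kiwifruit 9618 RPM. Orange had 4895 RPM, pear 2277 RPM, ginger 1756 RPM and grapefruit 1671 RPM. Blueberry had 235 RPM, coconut 40.1 RPM and tomato 29.3 RPM. Soybean thus moved ahead of Hami melon, whose share was the higher, and coconut fell behind grapefruit and blueberry. From tomato to soybean the range was 7692-fold on this scale, and the summed miRNA level of these libraries was 28792 RPM and 533332 RPM. RPM depends on the totals given above, so this order and range would differ if reads were scaled to the paper's high-quality reads. The lowest summed level, 2939 RPM, was that of coconut.

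The family was almost wholly mtr-MIR-159a. This name was in all 11 libraries, as were only 6 others of the 418, and it made up 94.6% ± 11.0 (SD, n = 11) of the family, with a median of 99.5%. It was the whole family in blueberry and coconut, between 99.3% and 99.9% of it in 6 libraries, and less in orange (91.7%), tomato (87.2%) and ginger (63.9%). Among single miRNA names it ranked first in Hami melon, pea and soybean, and the 2nd in kiwifruit and orange. It was the 4th in pear, the 9th in ginger, the 10th in grapefruit, the 15th in blueberry and coconut and the 33rd of 118 in tomato. Its most abundant sequence was identical in 10 libraries, the 21-nt form printed above, and in ginger it was 20 nt long and lacked the last base.

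**Figure D2:**
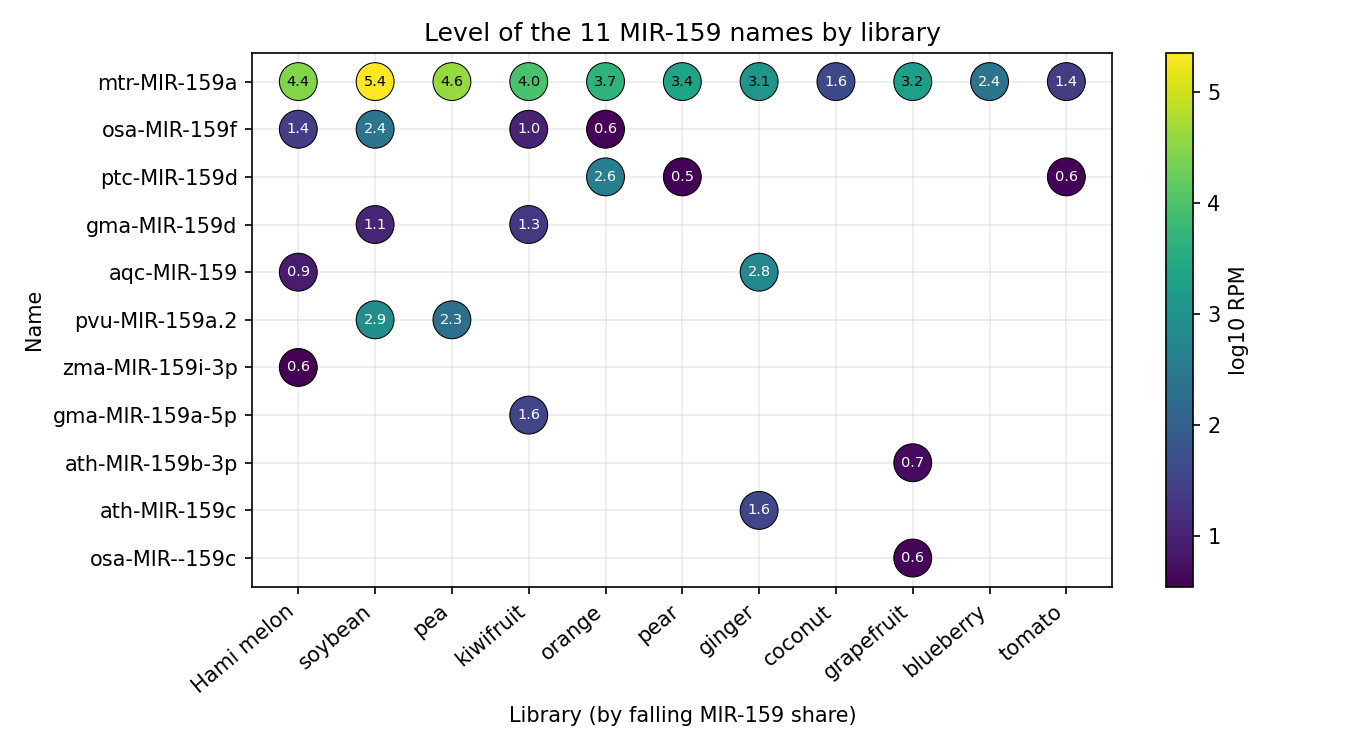
Level of each of the 11 MIR-159 names (rows) in each library (columns, by falling MIR-159 share); colour and the number in each circle give log10 RPM, and an empty position means that the name was not listed. Only mtr-MIR-159a fills its row, and 5 names occur in a single library.

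The other 10 names gave 18 values, of which 5 rested on 10 reads or fewer. Of these names 5 were in 1 library only. The listed sequence was the reference itself in 17 of all 29 cases, and 21, 20 and 22 nt long in 21, 6 and 2 cases. Since the references of the near-copies differ from mtr-MIR-159a by only 1 to 3 bases, each name is given below as reads per 1000 reads of mtr-MIR-159a in the same library, with an exact 95% binomial interval for counting error.

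The near-copy osa-MIR-159f, which differs only at its first base (T1C), stood at much the same proportion in each of its libraries. It had 36 reads in Hami melon (26.3 RPM), 67 in kiwifruit (10.3 RPM), 19 in orange (3.93 RPM) and 136 in soybean (258 RPM). Its RPM therefore differed widely between these 4 libraries, and mtr-MIR-159a differed with it. Per 1000 reads of mtr-MIR-159a the counts were 0.932 (0.653 to 1.29), 1.08 (0.834 to 1.37), 0.876 (0.527 to 1.37) and 1.15 (0.968 to 1.36), and all 4 intervals overlapped. At the pooled proportion of 1.07 per 1000, pea would hold 14.6 reads and pear 8.29, above the smallest listed count, yet osa-MIR-159f was listed in neither. The 5 libraries with the fewest reads of mtr-MIR-159a would hold at most 2.21 reads.

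That proportion is in the range of other names that lie 1 base from an abundant name. Among families other than MIR-159, 64 pairs of names in a library had listed sequences of equal length that differed by 1 substitution. In the 25 of these whose major name had 5000 reads or more, the minor name had a median of 0.722 reads per 1000 of the major (interquartile range 0.421 to 1.39), and 21 of the 25 had under 2. Most of the 25 had a MIR-166 name as the major, mainly aly-MIR-166h-3p in several libraries, so they are not independent. All pairs at or over 2 had majors of other families, up to 242 per 1000 for gma-MIR-1509b in soybean. Over all 64 pairs the median was 30.7. A minor name beside a scarce one is listed only when its proportion is high. The highest proportion of the 64 was that of osa-MIR-393b-5p and mtr-MIR-393a in blueberry, with 787 against 870 reads. Why the median over all 64 pairs was higher was not tested. The limits of 5000 reads and 2 per 1000 were chosen after the values were seen. Of the 18 values of minor MIR-159 names, 8 were also under 2 per 1000. Besides the 4 of osa-MIR-159f these were aqc-MIR-159 (0.285) and zma-MIR-159i-3p (0.130) in Hami melon, ptc-MIR-159d in pear (1.55) and gma-MIR-159d in soybean (0.0509). The last is no near-copy, with 12 mismatches to mtr-MIR-159a. Where the reads of the other 7 came from was not tested.

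**Figure D3:**
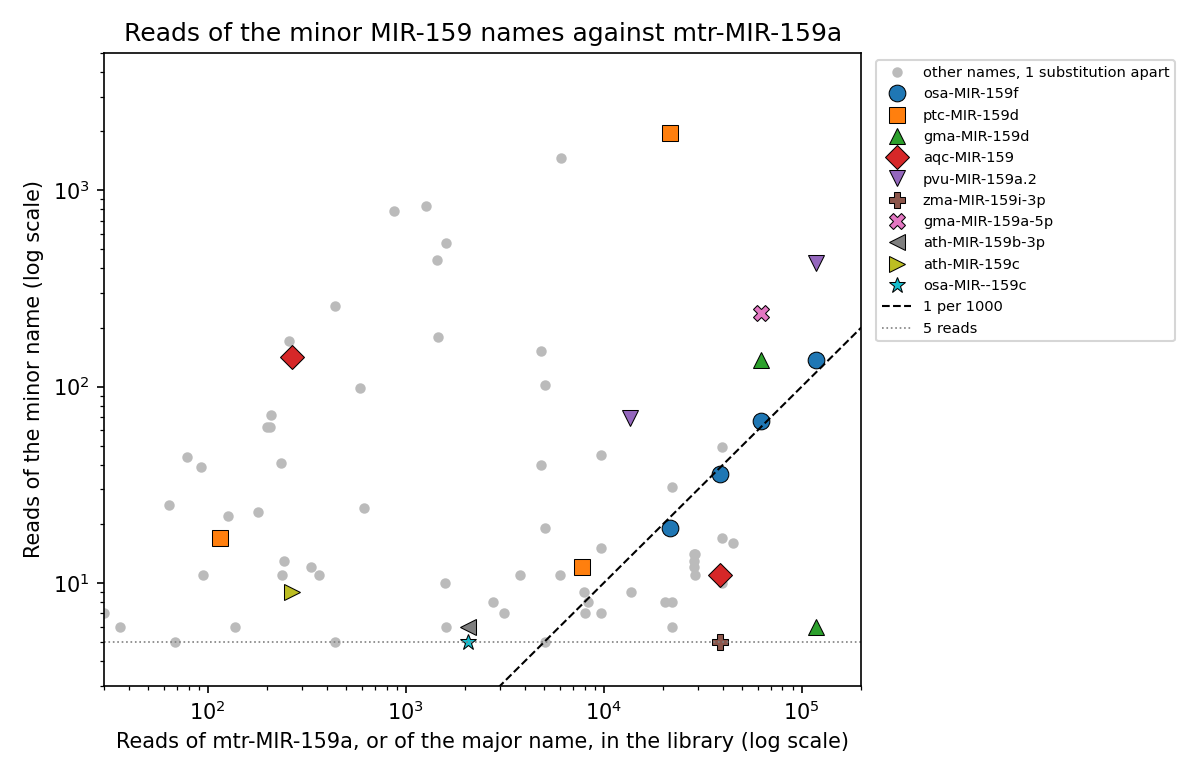
Reads of each minor MIR-159 name (coloured symbols, vertical log axis) against reads of mtr-MIR-159a in the same library (horizontal log axis); grey points are pairs of other names 1 substitution apart, with the major name on the horizontal axis. The dashed line is 1 read per 1000 and the dotted line the smallest count listed in 10 of the 11 libraries; the 4 osa-MIR-159f points lie along the dashed line, and ptc-MIR-159d in orange and aqc-MIR-159 in ginger lie far above it.

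Other minor names stood well above that level in particular plants. In orange, ptc-MIR-159d reached 405 RPM (1957 reads), which was 8.27% of the family and 90.2 per 1000 of mtr-MIR-159a (86.1 to 94.5). In pear the same name had 12 reads, 1.55 per 1000 (0.802 to 2.72), and in tomato 17 reads, 147 per 1000 (82.6 to 245). The listed sequence was the same 20-nt form in all 3, with C at the first and the last base (T1C and T20C).
ptc-MIR-159d as listed: CttggattgaagggagctcC
Capitals again mark differences from mtr-MIR-159a. Orange and tomato lay far above pear, with no overlap of intervals. In tomato, however, the smallest listed count is worth 43.1 per 1000, so any name listed there would lie far above the pear value. The name was not listed in Hami melon, soybean or kiwifruit, where the smallest listed count is worth 0.130, 0.0424 and 0.0803 per 1000.

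In ginger, aqc-MIR-159 had 141 reads (595 RPM), 33.9% of the family and 530 per 1000 of mtr-MIR-159a (429 to 653). In Hami melon it had 11 reads (8.03 RPM). Its base 7 is the base by which MIR-319 also departs from MIR-159 (T7C), and the ginger sequence was, like that of mtr-MIR-159a there, a 20-nt form without the last base.
aqc-MIR-159 as listed in ginger: tttggaCtgaagggagctct
mtr-MIR-319d-3p as listed in ginger: ttggaCtgaagggagctcCCT
The MIR-319 sequence starts 1 base later, and over their shared length mtr-MIR-319d-3p and mtr-MIR-159a differ by 3 substitutions (T7C, T20C and A21C). The last capital of the MIR-319 sequence is a base beyond the end of mtr-MIR-159a. The listed sequence of aqc-MIR-159 in ginger lay 1 substitution and a shift of 1 base from that of gma-MIR-319l, which had 179 reads there. Over their shared length it also lay 1 substitution and a shift of 1 base from mtr-MIR-319d-3p, which had 7968 reads and a longer 3′ end. The 9 reads of ath-MIR-159c in ginger (38.0 RPM) lay as near to mtr-MIR-319d-3p, to whose 7968 reads they stood at 1.13 per 1000, and 2 substitutions from mtr-MIR-159a (T20C and A21C). Which family the reads of these 2 names came from was not tested. By itself mtr-MIR-159a took 1.57% of the ginger library.

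A like case was orange, where ptc-MIR-159d lay 1 substitution from the listed form of mtr-MIR-319d-3p. There the MIR-319 name was the scarcer, with 358 reads against 1957. In pear the order was the reverse, with 215 reads of mtr-MIR-319d-3p and 12 of ptc-MIR-159d. It was also the reverse in tomato, with 7.26 RPM of mtr-MIR-319d-3p and 3.74 RPM of ptc-MIR-159d. The 23-nt form of mtr-MIR-319d-3p listed in tomato contained the ptc-MIR-159d form with 1 substitution. Which family the reads of ptc-MIR-159d came from was not tested. The remaining near-copies were at the edge of listing. In grapefruit ath-MIR-159b-3p had 6 reads (4.83 RPM) and osa-MIR--159c 5 reads (4.03 RPM), and zma-MIR-159i-3p had 5 reads in Hami melon (3.65 RPM).

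The 3 names other than near-copies were listed in 3 libraries. Hairpin sequences were not used here, so their positions rest on the names and the computed pairing. The bean name pvu-MIR-159a.2 had 424 reads in soybean (805 RPM) and 69 in pea (199 RPM), with the reference sequence in both. Per 1000 reads of mtr-MIR-159a this was 3.60 (3.26 to 3.96) in soybean and 5.09 (3.96 to 6.44) in pea, intervals that just met. In Hami melon, kiwifruit, orange and pear the smallest listed count is worth 0.130, 0.0803, 0.230 and 0.647 per 1000, so a matching sequence at the soybean proportion would have been listed there. The same holds narrowly for grapefruit, where it is worth 2.42 per 1000. In coconut, ginger, blueberry and tomato it is worth more than the soybean proportion, which was not detectable there. A sequence that departs from the bean reference by more than 2 bases would not carry this name in any library.

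Kiwifruit held gma-MIR-159a-5p, by its name the strand opposite to mtr-MIR-159a, at 237 reads (36.4 RPM), or 3.81 per 1000 (3.34 to 4.32), with 1 base changed from its soybean reference (T20A, the reference base first). The kiwifruit sequence paired with mtr-MIR-159a at the same 14 Watson-Crick and 2 G-U positions of 19. Kiwifruit also held gma-MIR-159d at 137 reads, or 2.20 per 1000 (1.85 to 2.60), with 2 bases changed (T8G and G10T).
gma-MIR-159d as listed in soybean: AGCtGCTTAGCTaTggaTcCct
gma-MIR-159d as listed in kiwifruit: AGCtGCTgatCTaTggATCcC
Capitals mark differences from mtr-MIR-159a, and bases that lie outside it, in each one's best ungapped placement. These placements differ, so the capitals do not mark the 2 bases changed from the soybean reference. Soybean itself had only 6 reads of gma-MIR-159d (11.4 RPM), in a 22-nt form with an added base, beside the 424 reads of pvu-MIR-159a.2 with which its sequence pairs. In kiwifruit pvu-MIR-159a.2 was not listed.

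MIR-159 was next compared, library by library, with 5 families that act on other regulators of plant development. These were MIR-156 (SPL factors of phase change), MIR-166 (HD-ZIP III factors of organ polarity), MIR-167 (auxin response factors), MIR-319 and MIR-396 (growth-regulating factors). Families were taken by number, so MIR-157 and MIR-165 names were left out, although some lay 1 substitution from a MIR-156 or MIR-166 name. The log2 ratio of the summed RPM was tested over the 11 libraries by an exact two-sided permutation test that flips signs, with Benjamini-Hochberg adjustment over the 5 families.

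MIR-159 was higher than MIR-156 by 3.30 ± 3.14 on the log2 scale (SD, n = 11, exact p = 0.00684, adjusted p = 0.0244). It exceeded MIR-156 in 10 of 11 libraries, from 0.60 in tomato to 8.25 in orange, and lay below it in coconut (-1.75). It was higher than MIR-167 by 2.95 ± 3.05 (n = 11, exact p = 0.00977, adjusted p = 0.0244), in 9 of 11 libraries. Coconut (-2.46) and blueberry (-0.03) were the exceptions, and Hami melon had the highest ratio (9.07). With values under 29.5 RPM left out, the highest of the smallest listed values, the adjusted p rose to 0.0879 for MIR-156 (n = 8) and 0.0586 for MIR-167 (n = 10). Within the 5 squeezed and the 5 ground libraries the mean log2 ratio was 4.79 ± 3.09 and 2.81 ± 2.39 for MIR-156, and 2.95 ± 2.27 and 4.04 ± 3.05 for MIR-167. It was -2.60 ± 2.79 and -0.19 ± 3.67 for MIR-166, with MIR-159 the higher in 1 of 5 squeezed and 4 of 5 ground libraries. For MIR-319 it was 3.39 ± 2.42 and 1.18 ± 3.13, and for MIR-396 0.83 ± 2.27 and 2.90 ± 4.75.

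Against MIR-166, the ratio averaged -1.55 ± 3.20 (n = 11, exact p = 0.148, adjusted p = 0.166), with MIR-159 the higher in 5 of 11 libraries. Blueberry, where MIR-166 took 75.3% of the summed level, had the lowest ratio (-6.93) and soybean the highest (2.12). Against MIR-396 the ratio was 1.64 ± 3.56 (n = 11, exact p = 0.166, adjusted p = 0.166), with MIR-159 the higher in 6 of 11. It ran from -2.60 in tomato to 9.15 in soybean, and kiwifruit, where MIR-396 took 49.4%, stood at -1.58. Neither difference passed the test beyond the spread between libraries.

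**Figure D4:**
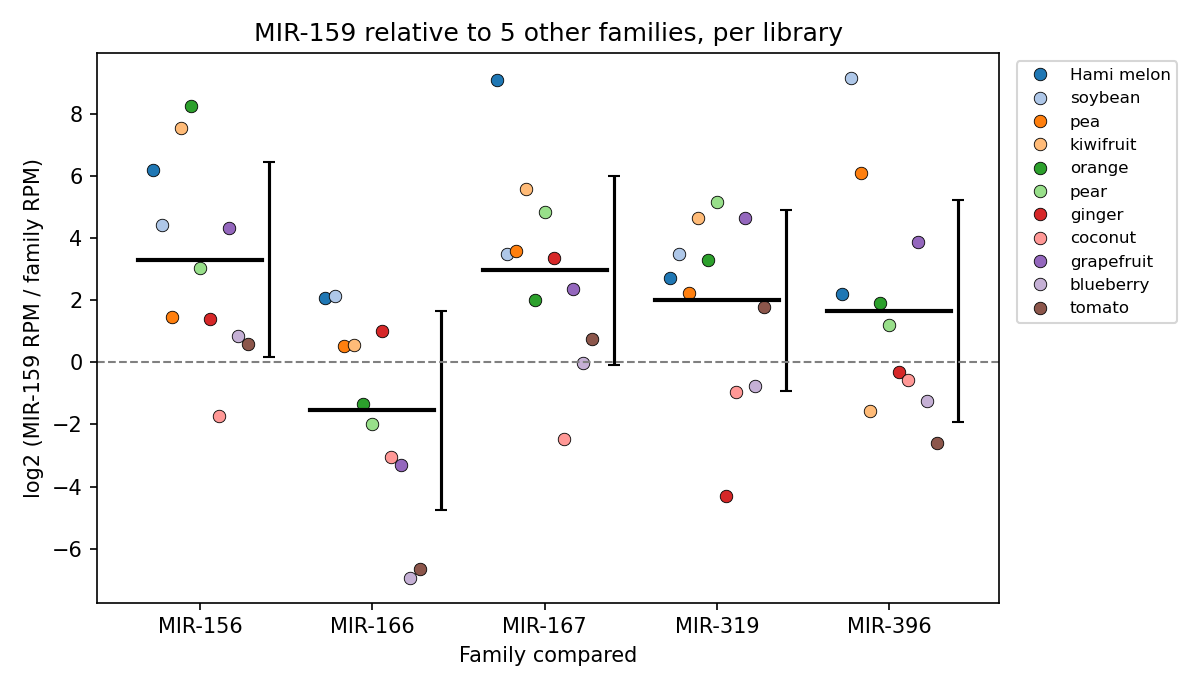
log2 ratio of the summed RPM of MIR-159 to that of 5 other families, 1 point per library (colours) and family (horizontal axis); the thick line is the mean over 11 libraries, the bar at its right ± 1 SD, and the dashed line equal levels. The points lie above the dashed line in 10 of 11 libraries for MIR-156 and 9 of 11 for MIR-167, and on both sides for MIR-166 and MIR-396.

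The sister family, MIR-319, was in all 11 libraries under 10 names, with shares from 48.2% in ginger to 0.0298% in tomato. MIR-159 was above MIR-319 in 8 of 11 libraries, by up to 5.17 on the log2 scale in pear, and below it in ginger (-4.29), coconut (-0.96) and blueberry (-0.76). The mean log2 ratio was 1.99 ± 2.91 (n = 11, exact p = 0.0508, adjusted p = 0.0846), which did not pass 0.05. Ginger decided on which side of the threshold it fell, and without it the ratio was 2.62 ± 2.13 (n = 10, exact p = 0.00781, adjusted p = 0.0293).

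Families present in all 11 libraries were ranked by how closely their share followed that of MIR-159. The ranking is a description, since shares of a library sum to 100% and each library was a single preparation. Only 11 of 189 families, MIR-159 among them, were in all libraries. Some of these are on the list of numbers regarded as resembling pieces of tRNA or rRNA. MIR-319 had the highest value, with Spearman's rho of 0.609 over 11 libraries (0.479 to 0.794 when each was left out in turn). MIR-156 (0.391, 0.261 to 0.503) and MIR-396 (0.318, 0.127 to 0.564) followed. This order was not stable. Without pea, or without soybean, MIR-396 had the same rho as MIR-319 (0.564), and without blueberry and tomato Pearson's r of the log2 share was 0.360 for MIR-319 and 0.369 for MIR-166. MIR-168, which acts on the Argonaute gene AGO1, had the lowest rho (-0.591, -0.709 to -0.491).

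The other families that act on MYB genes were scarce or uneven. MIR-828, which acts on MYB genes of pigment and trichome formation, was listed once, as gma-MIR-828b in kiwifruit with 5 reads (0.767 RPM). MIR-858, which acts on MYB genes of flavonoid synthesis, was listed under 3 names in 4 libraries. It took 19.6% of pear (6502 RPM), where MIR-159 took 6.88%, so that pear was the only library in which MIR-858 exceeded MIR-159. In kiwifruit, orange and Hami melon MIR-858 had 57.1, 22.5 and 16.8 RPM.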

How the data were processed

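Size-selected small RNA was sequenced from ELNs, 1 library per plant. The authors filtered reads, removed repeats, named the rest with MIRPIPE by their match to plant entries of miRBase, with 2 mismatches allowed, and deposited RPM with the most abundant sequence per name and library. No reference genome was used here. The 950 deposited RPM values and sequences were the same in the merged table and the single-library files. Reads were recovered from the RPM step (within 0.01 of a read). Names sharing a number form a family. Sequences were aligned without gaps. Shares have 95% Wilson intervals, and 5 ratios were tested over 2048 sign flips (smallest p 9.77e-04). Scripts were tested on simulated data. Alternatives were read, RPM and length minimums, other family limits, other names in the sum, shares instead of ratios, and leaving out each library.

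The members, comparison families and lists were chosen with earlier results of these data known. Named were every MIR-159 name, the comparison and MYB-acting families, the 3 families with the highest rho and the 1 with the lowest, and names of another number within 1 substitution of a member. The software was scipy 1.17.1, numpy 2.4.6 and pandas 2.3.3 under Python 3.11.15, with figures from matplotlib 3.10.9.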

Additional observations from a re-analysis of the deposited data

How the results depend on the processing

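Of 95 alternative values of the 5 family ratios, 92 kept direction and side of the 0.05 threshold. The exceptions by the exact sign-flip permutation test were MIR-156 (2.58, adjusted p = 0.0879) and MIR-167 (3.20, adjusted p = 0.0586) with values under 29.5 RPM left out, and MIR-319 without ginger (2.62, adjusted p = 0.0293). Some of the 92 could not change, since the names left out as resembling tRNA or rRNA pieces belong to none of the families compared. Leaving out each library gave mean log2 ratios of 2.80 to 3.80 for MIR-156, 2.34 to 3.49 for MIR-167, 1.67 to 2.62 for MIR-319, 0.89 to 2.07 for MIR-396 and -1.91 to -1.01 for MIR-166, and mean shares of 11.3% to 15.7%. All 19 alternative mean shares lay within 1 SD, a limit that could hardly be passed because the SD (16.9) exceeded the mean (14.3%). The range of rho without each library was added after the data were seen. Of 77 alternative shares of single libraries, 22 left the counting interval. Without the names of the 11 numbers regarded as resembling pieces of tRNA or rRNA, grapefruit rose from 0.801% to 6.48% and passed ginger and coconut. Hami melon then reached 51.4% and soybean 47.9%. With listed sequences of 18 nt or more, coconut was 2.50% and grapefruit 1.44%. Without values under 29.5 RPM tomato had no MIR-159. No paired analysis was possible because each plant has 1 library, so replicate numbers pair no samples, and the family ratios were already taken within each library. Proportions of minor names were least resolved in coconut, tomato and ginger, with 62, 116 and 266 reads of mtr-MIR-159a.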
